A study of Mus musculus with 9 samples.

Results

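Class I odorant receptors of the chromosome 7 cluster were examined in RNA from the nasal mucosa of mice with and without papain-induced eosinophilic rhinosinusitis. The members are the rows of the deposited expression table whose Ensembl identifier carries an Olfr symbol, in the GRCm38 naming, from Olfr543 to Olfr692. There were 120 such genes among 21930 rows. The table also held 1006 odorant receptors outside the cluster, most of them class II, and 9 receptors inside the cluster with other numbers.

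The 9 libraries were poly(A) RNA of wild-type mice, 3 in each of 3 groups. The control group received no treatment. The eCRS group (the labels' name for the eosinophilic chronic rhinosinusitis model) was given intranasal papain, a protease from papaya, in doses of 20 µg (volume 20 µl) from day 0 to day 2 and once more from day 7 to day 11. The eCRS_Exo group received the same papain and, on days 7 to 11, exosomes of mesenchymal stem cells, and tissue of all groups was taken on day 12. No vehicle is named for the controls. Whether a library stands for 1 mouse is not stated. The p-values here set differences between groups against the spread of libraries within groups, and that spread can be technical. Levels are FPKM (fragments mapped, corrected for transcript length and for the size of the library), given as deposited or, where called scaled, after division of each library by its median-of-ratios size factor.

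Odorant receptors are G protein-coupled receptors of olfactory sensory neurons, and each mature neuron transcribes a single receptor gene from a single allele. Class I receptors resemble the receptors of fish, lie in a single large cluster and are used mostly by neurons of the dorsal olfactory epithelium; many respond to hydrophilic odorants such as carboxylic acids. Class II receptors and the trace amine-associated receptors (Taar) make up the rest of the canonical repertoire, and a receptor's transcript level in the whole tissue follows largely from how many neurons chose it. In such bulk RNA, fewer neurons of a kind and less RNA per neuron cannot be told apart.

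All 120 genes lay on chromosome 7 between positions 102476579 and 105369355 of GRCm38, 63 on the plus and 57 on the minus strand. The annotation calls all of them protein coding, although 5 carry a pseudogene symbol. Gaps of over 100000 bp split them into 4 blocks of 71, 15, 10 and 24 genes, from Olfr543 to Olfr630, Olfr631 to Olfr649, Olfr651 to Olfr661 and Olfr665 to Olfr692. The beta globin genes lie between the first block and the second.

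Many of these receptors are close copies in coding sequence, which limits how far reads of that sequence can be assigned to a single gene. Of the 120 coding sequences, 26 had a copy of at least 95% identity among the odorant receptors with a row in the expression table. Annotated receptors without a row were not searched. The highest identity was 99.5%, between Olfr596 and Olfr603. The sequences shown first are the most different 120 bases of 2 such pairs, which include Olfr598, the member of second highest level, and Olfr681, which is described with the exosome comparison. Capitals mark the bases at which the members of a pair differ. Each is a coding stretch of GRCm38 on the plus strand, printed 5′ to 3′.
Olfr598, chr7:103328800-103328919: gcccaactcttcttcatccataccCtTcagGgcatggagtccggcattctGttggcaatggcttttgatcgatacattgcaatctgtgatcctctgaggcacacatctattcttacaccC
Olfr597, chr7:103320713-103320832: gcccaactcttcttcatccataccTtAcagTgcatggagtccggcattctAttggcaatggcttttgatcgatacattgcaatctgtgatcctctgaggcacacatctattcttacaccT
Olfr681, chr7:105122014-105122133: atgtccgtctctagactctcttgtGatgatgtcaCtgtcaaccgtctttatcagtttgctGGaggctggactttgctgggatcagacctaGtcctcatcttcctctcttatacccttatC
Olfr679, chr7:105086273-105086392: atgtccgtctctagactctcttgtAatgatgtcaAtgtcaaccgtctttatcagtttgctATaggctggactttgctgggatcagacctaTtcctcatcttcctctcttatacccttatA
Even in these windows Olfr598 and Olfr597 differed at 5 bases and Olfr681 and Olfr679 at 6. Over 945 aligned coding bases they differed at 19 and 14, so only a few bases tell their coding reads apart. The exons of Olfr598, Olfr597, Olfr681 and Olfr679 total 2026, 2727, 4729 and 5184 bp, and sequence outside the coding part was not compared. The split of their values is uncertain as far as it rests on coding reads.

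Olfr672, the member of highest level, and Olfr692 had no close copy by this measure. The closest receptor to Olfr672 was 71.8% identical, and Olfr692 had no aligned copy over 80% of its coding length. Their first 120 coding bases, which begin with the start codon, are shown in lower case throughout, as examples with no near copy found.
Olfr672, chr7:104996783-104996902, minus strand: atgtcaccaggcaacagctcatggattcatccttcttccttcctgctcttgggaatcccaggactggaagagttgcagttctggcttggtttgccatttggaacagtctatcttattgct
Olfr692, chr7:105368328-105368447, plus strand: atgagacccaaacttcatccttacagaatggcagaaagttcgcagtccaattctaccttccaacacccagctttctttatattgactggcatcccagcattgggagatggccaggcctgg
Another 9 members overlapped exons of another gene, 5 of them on the same strand (such as Olfr560 with Olfr78), and whether the counting used strand is not given in the sources used here.

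Single class I genes were low. The median of the member means over 9 libraries was 0.378 FPKM, against 0.308 FPKM for the 1006 receptors outside the cluster. A mean of at least 1 FPKM was reached by 14 members, or 11.7%, and by 10.3% of the other receptors. A mean under 0.1 FPKM was found for 18 members. Of all 120, 97 were above 0 in every library, and Olfr564, Olfr573-ps1 and Olfr625-ps1 were listed at 0 in every library.

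The 12 members of highest mean made up 33.4% to 39.7% of the summed class I FPKM in each library. Olfr672 (chr7:104995760-105002029, minus strand) led in mean level with 3.75, 2.57 and 2.66 FPKM in the controls, 8.43, 2.54 and 3.85 in eCRS and 8.04, 9.24 and 4.89 in eCRS_Exo. Every eCRS_Exo library was above every control library, while the eCRS libraries spanned both. Olfr672 alone made up 6.96% to 8.94% of the class I sum of a library, so no single receptor carried the sum.

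Olfr598 (chr7:103323568-103329888) followed with 2.41, 1.31 and 1.26 FPKM in the controls, 5.04, 1.81 and 2.35 in eCRS and 4.86, 6.10 and 3.47 in eCRS_Exo. Olfr665, next in level, had 1.75, 2.32 and 1.20 FPKM in the controls, 4.59, 1.45 and 3.02 in eCRS and 5.38, 3.98 and 2.13 in eCRS_Exo. In both receptors the first eCRS library was the highest of its group and the second the lowest, as for Olfr672. The other 9 of the 12 (Olfr549, Olfr601, Olfr651, Olfr570, Olfr610, Olfr653, Olfr591, Olfr622 and Olfr669) had means of 1.13 to 1.68 FPKM.

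**Figure D1:**
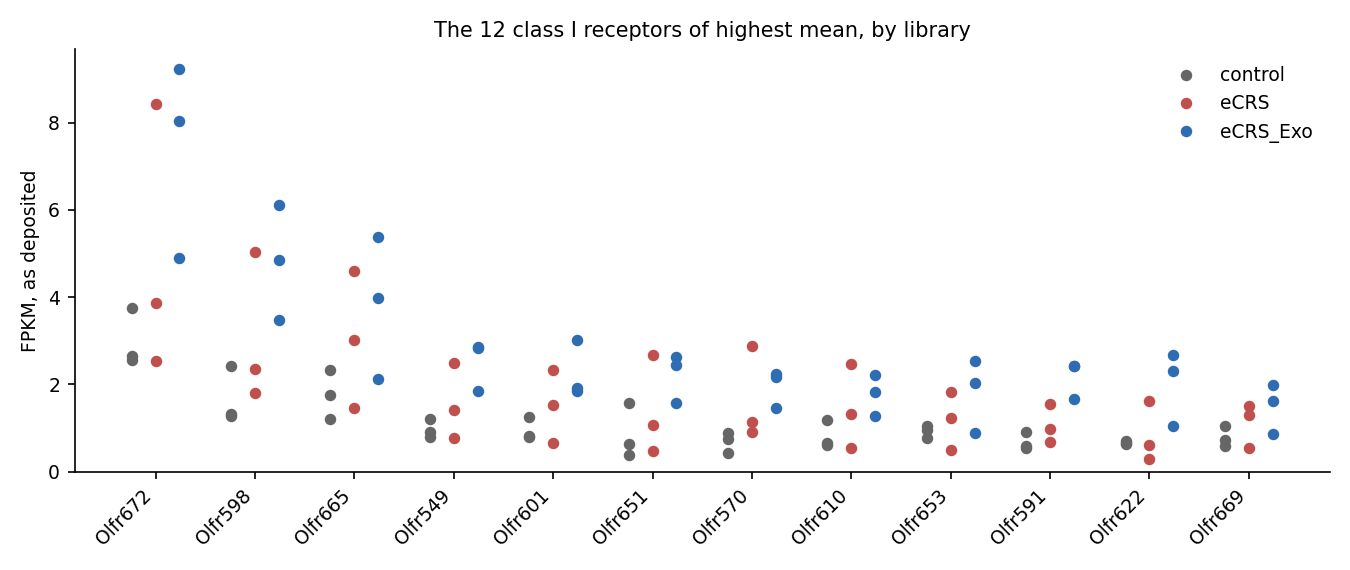
FPKM as deposited (y axis) of the 12 class I receptors of highest mean (x axis); each point is a library, coloured by group. Olfr672 is highest at up to 9.24 FPKM, and within eCRS the 3 libraries spread widely for most receptors.

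The order of the receptors was much the same in all groups. The Spearman correlation of group mean levels across the 120 genes was 0.892 between control and eCRS, 0.941 between eCRS and eCRS_Exo and 0.902 between control and eCRS_Exo. These are descriptions across genes, which are not independent replicates, and gene length and sequence are shared between the groups. In gene order the levels were uneven, with high and low receptors side by side. The plot of levels in gene order shows the same peaks in each group.

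**Figure D2:**
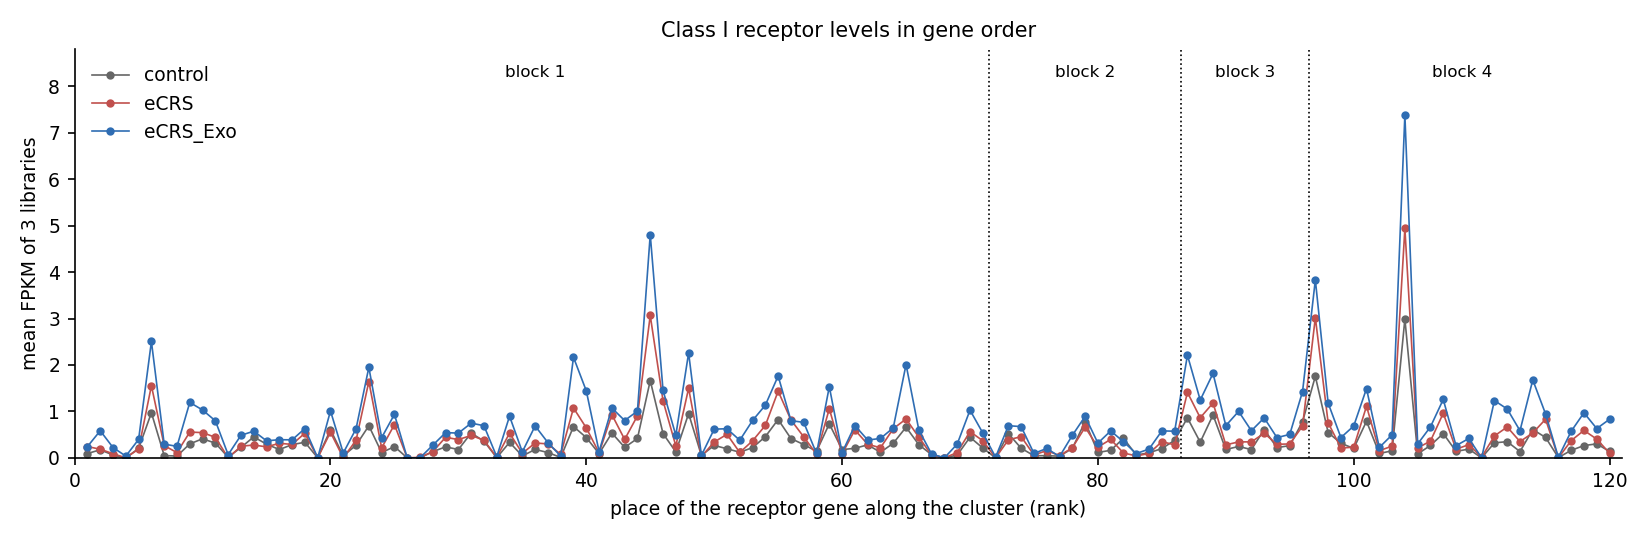
Mean FPKM of 3 libraries (y axis) for the 120 class I receptors by rank of position along the cluster (x axis), with a line per group and dotted lines between the 4 blocks. The peaks at Olfr598 and Olfr672 stand at the same places in every group and are highest in eCRS_Exo, at 4.81 and 7.39 FPKM.

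As a set, class I receptors were spread around the control level after papain, and the receptors outside the cluster were below it in 2 of 3 eCRS libraries as deposited and in 3 of 3 after scaling. Summed class I FPKM was 50.8, 34.4 and 32.7 in the controls, 94.3, 29.4 and 55.4 in eCRS and 105.6, 112.4 and 67.2 in eCRS_Exo. The eCRS libraries lay on both sides of the controls, and all 3 eCRS_Exo libraries lay above them. After scaling the sums were 66.5, 45.1 and 42.8 in the controls, 88.2, 41.3 and 57.0 in eCRS and 60.5, 70.4 and 57.2 in eCRS_Exo, and all 3 groups overlapped.

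The receptors outside the cluster took another course. Their summed FPKM was 456, 457 and 418 in the controls, 482, 176 and 261 in eCRS and 648, 844 and 432 in eCRS_Exo. The controls lay close together, and the second and the third eCRS libraries were well below them. After scaling the sums were 596, 599.6 and 547 in the controls, 451, 247 and 269 in eCRS and 371, 529 and 367 in eCRS_Exo, and both papain groups lay below every control.

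The share that class I receptors hold among odorant receptors does not depend on how a library is scaled, since any factor cancels. Per 100 FPKM of the receptors outside the cluster, class I receptors held 11.1, 7.52 and 7.82 FPKM in the controls, 19.6, 16.7 and 21.2 in eCRS and 16.3, 13.3 and 15.6 in eCRS_Exo. The 3 groups did not overlap, with control lowest and eCRS highest. The group means were 8.83 ± 2.01, 19.2 ± 2.28 and 15.1 ± 1.56 (SD, n = 3 each). No p is given for this ratio, because the genes in it were chosen with results of these data known.

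The order of these group means did not rest on a few abundant genes. Without Olfr672 the group means were 8.15, 17.6 and 13.9 FPKM per 100. Without the 20 other receptors of highest mean they were 10.6, 21.2 and 17.3. In that case eCRS and eCRS_Exo overlapped, with the lowest eCRS library at 18.4 and the highest eCRS_Exo library at 19.0. The 9 receptors of the cluster with other numbers, among them Olfr78, a receptor for short-chain fatty acids that is also made outside the nose, held 0.770, 1.74 and 1.20 FPKM per 100 on average in control, eCRS and eCRS_Exo.

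**Figure D3:**
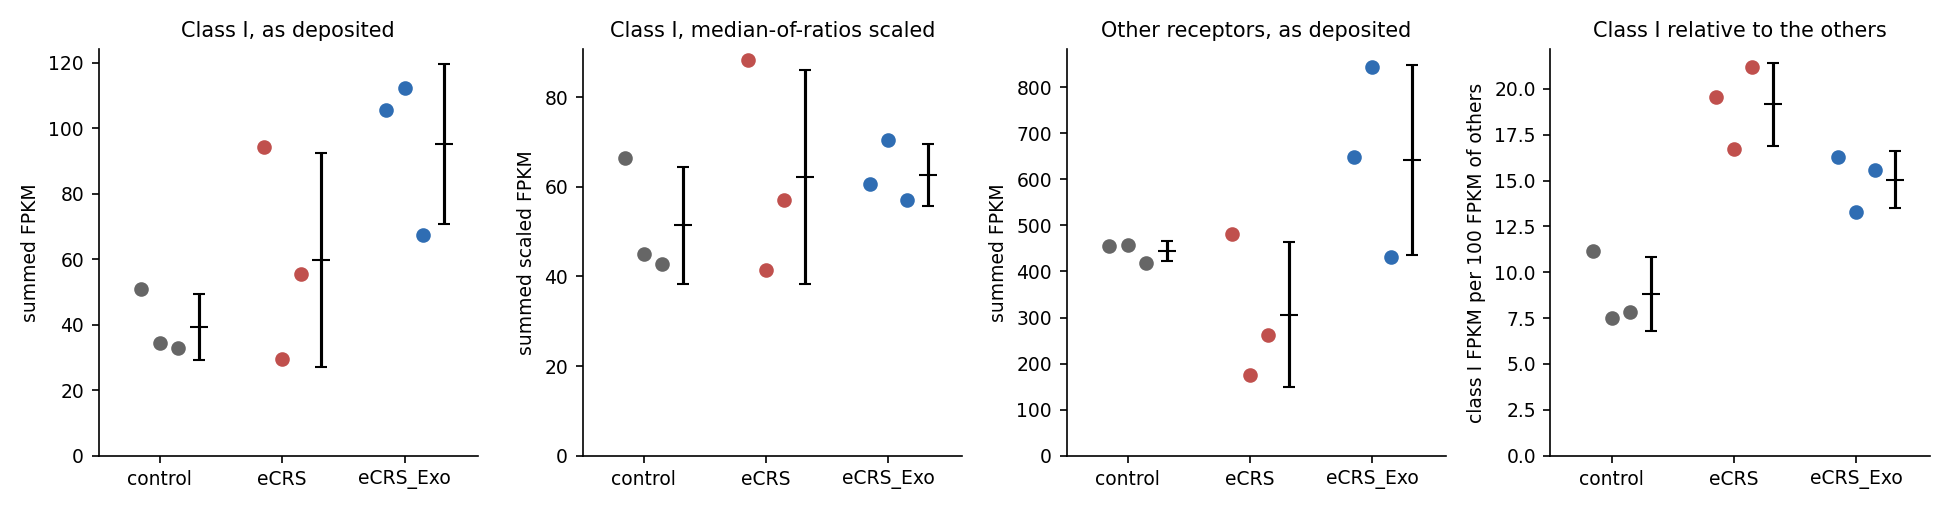
Summed FPKM of the class I receptors as deposited and scaled, summed FPKM of the 1006 receptors outside the cluster, and class I FPKM per 100 FPKM of those others (y axes) by group (x axes); points are libraries, and black marks are the mean and SD of 3 libraries. For the ratio the groups are apart, at 7.52 to 11.1 in control, 16.7 to 21.2 in eCRS and 13.3 to 16.3 in eCRS_Exo.

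Dorsal receptors of another family, divided by the same receptors as class I, showed the same order. The 14 Taar rows, receptors for volatile amines in dorsal neurons, held 0.797 ± 0.235 FPKM per 100 FPKM of the receptors outside the cluster in control, 2.14 ± 0.185 in eCRS and 1.68 ± 0.202 in eCRS_Exo (SD, n = 3 each). Here too the 3 groups did not overlap, but the ratio shares its denominator with that of class I and is not independent of it. Undivided, the Taar rows summed to 4.81, 2.73 and 3.09 FPKM in the controls and 11.1, 3.41 and 5.67 in eCRS. In eCRS_Exo the sums were 12.1, 14.5 and 6.31. Control and eCRS overlapped in these sums, as did eCRS and eCRS_Exo. Nqo1, an oxidoreductase enriched in dorsal olfactory neurons, relative to Ncam2, a cell adhesion molecule of the ventral and lateral zones, gave 17.7, 9.95 and 9.13 in the controls, 15.4, 18.4 and 19.4 in eCRS and 15.3, 12.3 and 17.1 in eCRS_Exo. The first control library, which also had the highest class I ratio of its group, overlapped with the treated groups in this measure. Nrp2, the other listed ventral gene, went the other way from Ncam2 in eCRS against control. Mean Nrp2 was 4.06 FPKM in control, 5.19 in eCRS and 9.32 in eCRS_Exo, and mean Ncam2 was 2.05, 1.49 and 3.05. Mean Nqo1 was 24.3, 25.3 and 43.8 FPKM, so the order of the Nqo1 ratio depends on the ventral gene used. Whether the part of the mucosa taken differed between libraries was not tested.

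Mature olfactory neuron markers were used as a gauge of neuronal RNA, here in FPKM as deposited, which carry the scale of the library. In eCRS_Exo against control the median log2 change of the 16 listed markers was 0.97 as deposited and 0.02 scaled. The geometric mean of 15 marker genes was 35.2, 38.7 and 33.6 FPKM in the controls, 34.1, 12.5 and 22.6 in eCRS and 84.8, 97.1 and 43.9 in eCRS_Exo. Summed class I FPKM divided by that mean was 1.44, 0.887 and 0.975 in the controls, 2.77, 2.35 and 2.45 in eCRS and 1.25, 1.16 and 1.53 in eCRS_Exo. By this measure eCRS stood above both other groups and those overlapped. Most genes rose under this division: the median log2 change in eCRS against control was 0.930 for members and 0.927 over all genes. The receptors outside the cluster, divided the same way, gave group means of 12.4, 13.3 and 8.73.

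For single genes, papain against control asked which class I receptors differ in inflamed mucosa. As deposited, none of the 104 tested members rose and none fell (limma with Benjamini-Hochberg adjustment over all genes tested, adjusted p under 0.05), against 3.02% of all genes called higher and 0.791% called lower. Without the second eCRS library 4 members were called higher, against 11.2% of all genes. At an unadjusted p under 0.05 in limma there were 11 members with all libraries, against 2908 of all 16942 genes tested. Another 16 of the 120 had too low values to be tested. Of the 104, 81 had a positive fitted change, as did 12841 of all 16942 genes tested. In 6 members every eCRS library was above every control library, against 18.9% of all genes. The median log2 change was 0.39, against 0.22 over all genes and -0.23 over the 893 tested receptors outside the cluster, of which 102, or 11.4%, were called lower. The member median rested on the first eCRS library: without it the median was 0.085, against 0.10 over all genes and -0.45 over the other receptors, with 59 of 104 members positive. Without the second eCRS library it was 0.77, against 0.38 over all genes.

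With all libraries, scaling left the same order of the medians. Over 103 tested members the median log2 change was 0.22, against -0.01 over all genes and -0.46 over 874 other receptors. Without the first eCRS library the scaled member median was -0.02, with 50 of 103 members positive and -0.61 for the other receptors, and without the second it was 0.45. None of the members was called higher and 1 was called lower, against 4.69% and 3.58% of all genes. Among the other receptors 2 were called higher and 189, or 21.6%, lower.

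Olfr644 (chr7:104066289-104071869, minus strand) was the member called lower on the scaled values. It had 0.578, 0.202 and 0.483 FPKM in the controls, 0.0810, 0.0962 and 0.134 in eCRS and 0.280, 0.324 and 0.435 in eCRS_Exo. The eCRS libraries were below all 6 others. Its log2 change in eCRS against control was -1.28 ± 0.36 (SE; adjusted p = 0.0621, limma) as deposited and -1.51 ± 0.36 (adjusted p = 0.0319) scaled. The scaled call ended without the first or the third control library or without any 1 of the 3 eCRS libraries, and the adjusted p in limma ran from 0.0158 to 0.112 as each library was left out. In block 2, where Olfr644 lies, the median member change was -0.04 as deposited.

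The largest positive fitted change belonged to Olfr572, with 0.339, 0.130 and 0.255 FPKM in the controls, 1.11, 0.322 and 0.709 in eCRS and 1.02, 0.918 and 0.870 in eCRS_Exo. Its lowest eCRS library overlapped with the highest control. The log2 change was 1.18 ± 0.38 (SE) and missed the threshold, with an adjusted p of 0.104 in limma. For the abundant Olfr672 and Olfr598 the log2 changes were 0.55 ± 0.35 and 0.77 ± 0.35 (SE; adjusted p = 0.441 and 0.271, limma). As each library was left out they ran from 0.083 to 0.93 and from 0.35 to 1.07. The first eCRS library was the highest of its group in each of these 3 receptors.

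When every library was divided by its summed FPKM of the receptors outside the cluster, 53 of 102 tested members were called higher in eCRS than in control. By that measure 20.8% of the other receptors and 62.9% of all genes were called higher too, so that the members' share of calls lay between those of the others and of all genes. This division was chosen after seeing the data. It gave 8 of 102 members higher in eCRS_Exo than in control, against 6.56% of all genes, and 1 of 102 in eCRS_Exo against eCRS, against 0.438%.

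**Figure D4:**
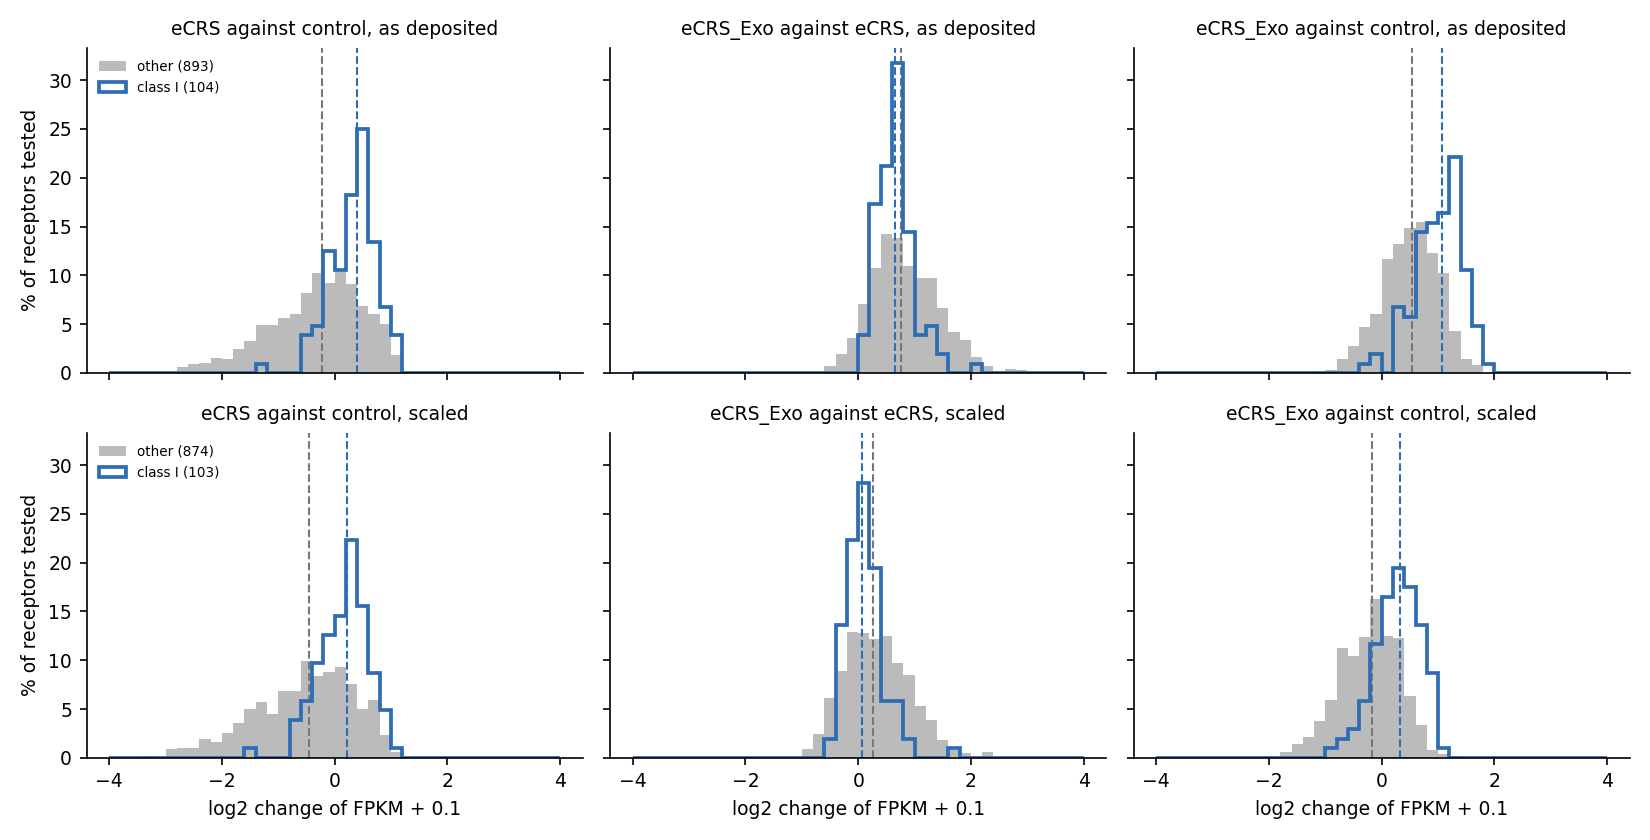
Distribution of fitted log2 changes of FPKM + 0.1 (x axis) as a percentage of the receptors tested (y axis), for class I receptors (blue line) and receptors outside the cluster (grey), in the 3 comparisons, as deposited (upper row) and scaled (lower row); dashed lines are medians and numbers in brackets count receptors. In eCRS against control the class I median is at 0.39 and that of the others at -0.23, as deposited, and the others have a longer lower tail.

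Exosomes with papain against papain alone asked what the exosome course changed. As deposited, 17 of 104 members were higher in eCRS_Exo and none lower, against 50.5% of all genes called higher and 0.708% lower. All 104 members had a positive fitted change, between 0.10 and 2.16, as did 15737 of all 16942 genes tested. The median member change was 0.65, against 0.67 over all genes and 0.77 over the other receptors, of which 344 of 893 rose. Without the first eCRS library 49 members were called, against 57.1% of all genes, and without the second 4, against 31.6%. Without the first, the second or the third eCRS_Exo library the counts were 5, 6 and 34, against 23.6%, 29.3% and 62.7% of all genes. Libraries did not overlap, with eCRS_Exo higher, in 19 members, against 51.3% of all genes. After scaling 1 member was called higher and none lower, against 9.49% and 11.4% of all genes, and 103 of 874 other receptors were called higher. The scaled medians were 0.07 for members, 0.01 over all genes and 0.27 for the other receptors. The sign of the scaled member median turned with 1 library: it was 0.29 without the first eCRS library, -0.12 without the second and -0.0019 without the second eCRS_Exo library. After division by the olfactory neuron markers the median member change was -0.72, against -0.94 over all genes.

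The members of smallest p after Olfr692, which is described below, were Olfr685, Olfr668, Olfr655, Olfr544 and Olfr681. Olfr685 had 0.663, 0.334 and 0.611 FPKM in eCRS and 2.35, 1.73 and 0.958 in eCRS_Exo, a log2 change of 1.44 ± 0.37 (SE; adjusted p = 0.00662, limma). Olfr668 had 0.181, 0.144 and 0.363 FPKM in eCRS and 0.611, 0.918 and 0.529 in eCRS_Exo, a log2 change of 1.28 ± 0.35 (adjusted p = 0.00948). Olfr655 had 0.516, 0.107 and 0.407 FPKM in eCRS and 1.15, 1.09 and 0.756 in eCRS_Exo, a log2 change of 1.44 ± 0.40 (adjusted p = 0.0104). In all 3 receptors every eCRS_Exo library was above every eCRS library. For Olfr681, the near copy of Olfr679, the values were 0.756, 0.173 and 0.486 FPKM in eCRS and 1.59, 1.20 and 0.905 in eCRS_Exo, with a log2 change of 1.34 ± 0.42 (adjusted p = 0.0161).

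None of these 5 calls, that of Olfr544 included, held after scaling, where the adjusted p values in limma were 0.0710 for Olfr685, 0.119 for Olfr668, 0.115 for Olfr655, 0.133 for Olfr544 and 0.188 for Olfr681. As deposited, the call of Olfr668 ended without the second eCRS_Exo library (adjusted p = 0.0520, limma) and that of Olfr655 without the second eCRS library (adjusted p = 0.0508). The calls of Olfr544 and Olfr681 ended without the second eCRS or the first eCRS_Exo library, with adjusted p values up to 0.0621 and 0.0847. Among the 17 called receptors 4 had a coding copy of at least 95% identity, as did 22 of the 104 tested. One of them, Olfr596, was called while its copy Olfr603 was too low to be tested.

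Olfr544 and Olfr558 are class I receptors with known ligands that are also made outside the nose. Olfr544 (chr7:102482031-102488313, minus strand), a receptor for azelaic acid, had 0.248, 0.188 and 0.0840 FPKM in the controls, 0.182, 0.0481 and 0.324 in eCRS and 0.654, 0.634 and 0.463 in eCRS_Exo. Control and eCRS overlapped, and all eCRS_Exo libraries were above both. Its log2 change in eCRS_Exo against eCRS was 1.38 ± 0.40 (SE; adjusted p = 0.0122, limma). Its neighbour Olfr545 is 96.6% identical in coding sequence, so part of this value may be coding reads of that gene. The rest of the exons was not compared. Olfr558, which responds to short-chain acids, had 0.243, 0.485 and 0.155 FPKM in the controls, 0.374, 0.0529 and 0.281 in eCRS and 0.424, 0.435 and 0.241 in eCRS_Exo, and all groups overlapped.

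Olfr692 (chr7:105368230-105369355, plus strand), the last gene of the cluster, was the only member called higher in eCRS_Exo on both scales. It is a class I receptor known from neurons of the vomeronasal organ, a separate sensory organ for pheromones. Its level was 0.108, 0.169 and 0.138 FPKM in the controls, 0.103, 0.0374 and 0.164 in eCRS and 1.30, 0.477 and 0.719 in eCRS_Exo. The eCRS_Exo libraries were all above the other 6. The log2 change in eCRS_Exo against eCRS was 2.16 ± 0.38 (SE; adjusted p = 0.00187, limma) as deposited and 1.63 ± 0.34 (adjusted p = 0.0110) scaled. Against control it was 1.88 ± 0.38 (adjusted p = 9.22e-04) and 1.15 ± 0.34 (adjusted p = 0.0403) scaled.

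Vomeronasal genes were also highest on average in eCRS_Exo. The 330 vomeronasal receptor rows summed to 2.84, 44.8 and 1.55 FPKM in the controls, 11.9, 19.6 and 0.866 in eCRS and 90.0, 17.5 and 78.9 in eCRS_Exo. Calr4, a calreticulin of vomeronasal neurons, had 0.254, 3.47 and 0.212 FPKM in the controls, 1.60, 1.29 and 0.122 in eCRS and 9.46, 2.01 and 7.67 in eCRS_Exo. Trpc2, the cation channel of vomeronasal neurons, had 0.0106 and 0.652 FPKM in 2 controls and was listed at 0 in the other, was at 0 in 2 eCRS libraries with 0.325 in the remaining library, and had 1.77, 0.489 and 1.52 in eCRS_Exo. The second eCRS_Exo library was the lowest of its group in all of these and in Olfr692. The second control library had a vomeronasal sum of 44.8 FPKM with Olfr692 at 0.169, each the highest of the controls. That Olfr692 level was still below every eCRS_Exo library. Within eCRS their order was reversed: the library with the vomeronasal sum of 19.6 FPKM had Olfr692 at 0.0374, and that with 0.866 had it at 0.164.

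Of the 7 listed vomeronasal markers, 6 were tested. All 6 rose in eCRS_Exo against eCRS as deposited, where 50.5% of all genes did, and none after scaling (limma, adjusted p under 0.05). Among the 6, Gnao1 and Gnai2 are also made by other cells. Ano1, another of the 6, had 6.92 FPKM in the third control library, where Trpc2 was listed at 0. As each library was left out, the adjusted p of Olfr692 in eCRS_Exo against eCRS (limma) lay between 9.23e-04 and 0.0155 as deposited and between 0.0159 and 0.0509 scaled, the highest without the first eCRS_Exo library. Against control it reached 0.158 scaled, and the scaled call ended without any 1 control or without the first or the third eCRS_Exo library, and with the replicate number as a block (adjusted p = 0.0585, limma). How much vomeronasal tissue each library held, and its part in this result, was not tested. Without Olfr692 the summed class I FPKM was 39.2 in control, 59.6 in eCRS and 94.3 in eCRS_Exo on average, against 39.3, 59.7 and 95.1 with it.

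**Figure D5:**
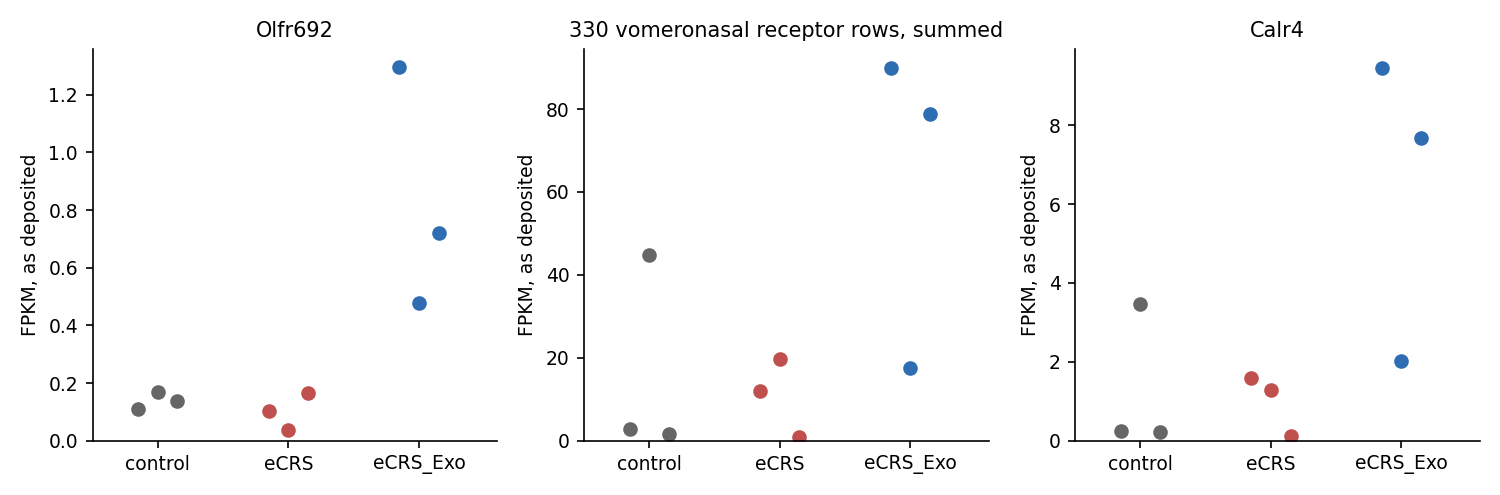
FPKM as deposited (y axes) by group (x axes) for Olfr692, the sum of 330 vomeronasal receptor rows and Calr4; each point is a library. The eCRS_Exo libraries are the 3 highest for Olfr692 (0.477 to 1.30 FPKM), while the second control library lies among them for the vomeronasal sum (44.8 FPKM).

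Against control, eCRS_Exo asked whether class I receptors in treated mice stand at the level of untreated ones. As deposited, 65 of 104 members were called higher and none lower, against 71.5% of all genes called higher and 0.478% lower. In 70 members every eCRS_Exo library was above every control library, against 77.2% of all genes. The median member change was 1.06, against 0.90 over all genes and 0.54 over the other receptors, of which 192 of 893 were called higher and 5 lower. Without the second or the third control, or the first or the second eCRS_Exo library, 42 to 43 members were called higher. The share of all genes called was then 55.6% to 61.6%. After scaling 1 member, Olfr692, was called higher and none lower, against 8.34% and 10.5% of all genes, with medians of 0.32 for members, 0.02 over all genes and -0.17 for the other receptors. Among the other receptors 6 were then called higher and 58 lower. The 3 comparisons share libraries and are not independent of each other.

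Among the members of smallest p in this comparison, Olfr591 had 0.918, 0.529 and 0.574 FPKM in the controls, 1.56, 0.688 and 0.979 in eCRS and 2.42, 2.42 and 1.66 in eCRS_Exo. Its log2 change against control was 1.56 ± 0.32 (SE; adjusted p = 9.12e-04, limma) as deposited and 0.68 ± 0.22 (adjusted p = 0.0561) scaled. Olfr684 had 0.219, 0.0649 and 0.122 FPKM in the controls, 0.510, 0.279 and 0.261 in eCRS and 0.608, 0.656 and 0.491 in eCRS_Exo. It was the member among these whose eCRS libraries were also all above the controls, with a log2 change in eCRS_Exo against control of 1.59 ± 0.35 (adjusted p = 0.00141) as deposited and 0.89 ± 0.30 (adjusted p = 0.0637) scaled.

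Olfr552 had 0.463, 0.257 and 0.181 FPKM in the controls, 0.881, 0.273 and 0.511 in eCRS and 1.61, 1.25 and 0.727 in eCRS_Exo, a log2 change against control of 1.69 ± 0.40 (SE; adjusted p = 0.00201, limma). Olfr572, Olfr598 and Olfr672, with the values given above, had log2 changes of 1.65 ± 0.38, 1.50 ± 0.35 and 1.25 ± 0.35 (SE; adjusted p = 0.00174, 0.00190 and 0.00573). None of these 4 was called after scaling, where their adjusted p values in limma were 0.0830, 0.0852, 0.195 and 0.459. The lowest fitted change of all was that of Olfr613, at -0.31 ± 0.34 (SE; adjusted p = 0.412), with 0.151, 0.108 and 0.164 FPKM in the controls, 0.0550, 0.0697 and 0.109 in eCRS and 0.0785, 0.113 and 0.0905 in eCRS_Exo.

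By position, the median log2 change of the members in eCRS against control was 0.47, -0.04, 0.23 and 0.38 in blocks 1 to 4 as deposited and 0.26, -0.18, 0.03 and 0.22 scaled, so that block 2 was negative on both scales. Per 100 FPKM of the receptors outside the cluster, block 1 held 4.64 ± 1.04 FPKM in control, 10.6 ± 1.26 in eCRS and 8.17 ± 0.855 in eCRS_Exo (SD, n = 3 each). Block 4 held 2.42 ± 0.362, 5.47 ± 0.465 and 4.24 ± 0.452. In both blocks the 3 groups did not overlap. Block 3 held 1.03 ± 0.239, 1.93 ± 0.400 and 1.71 ± 0.292, with control below both other groups. Block 2, of 15 genes including Olfr644, held 0.733 ± 0.386, 1.17 ± 0.260 and 0.937 ± 0.191, with overlap of all groups. Beta globin Hbb-bs and Hbb-bt, erythroid genes that lie between blocks 1 and 2, had medians of log2 change of 0.19 in eCRS against control and 0.79 in eCRS_Exo against eCRS as deposited, and -0.05 and 0.07 scaled.

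The lists of related genes give the setting of these values. The 16 mature olfactory neuron markers include Omp, Cnga2 and Adcy3 of the odorant transduction pathway. None was called in eCRS against control as deposited (10 at an unadjusted p under 0.05 in limma) and 10 fell after scaling, against 3.58% of all genes. In eCRS_Exo against eCRS all 16 rose as deposited, against 50.5% of all genes, and 15 after scaling, against 9.49%. Omp, the olfactory marker protein, had 213, 257 and 177 FPKM in the controls, 224, 78.5 and 140.0 in eCRS and 600, 739 and 302 in eCRS_Exo. As deposited, the eCRS_Exo libraries were above all others for Omp.

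Of 16 genes for receptor choice and its feedback, 14 rose in eCRS_Exo against eCRS as deposited, against 50.5% of all genes. After scaling 5 rose and 2 fell, against 9.49% and 11.4% of all genes. In eCRS against control none was called as deposited (1 at an unadjusted p under 0.05 in limma) and 3 fell after scaling, against 3.58% of all genes. Adcy3, Rtp1 and Rtp2 are also among the mature olfactory neuron markers. Lhx2 and Ebf1 are also among the immature neuron markers, so the lists are not independent. Bcl11b, the zinc finger factor that favours class II over class I choice, had 1.04, 0.969 and 1.08 FPKM in the controls, 2.41, 0.884 and 1.75 in eCRS and 3.48, 3.69 and 2.13 in eCRS_Exo. Its log2 change was 0.56 ± 0.32 (SE; adjusted p = 0.395, limma) in eCRS against control and 0.91 ± 0.32 (adjusted p = 0.0297) in eCRS_Exo against eCRS, the latter 0.23 ± 0.20 (adjusted p = 0.450) after scaling. Bcl11b is also made by T cells, whose part in these values was not tested.

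Of 14 tested dorsal zone genes (Nqo1, Acsm4 and Taar genes) none was called in eCRS against control on either scale, with 3 at an unadjusted p under 0.05 in limma on each. Their median log2 change was 0.47 as deposited and 0.31 scaled, next to 0.39 and 0.22 for class I, and is mostly that of Taar rows. The changes of Nqo1 were -0.02 and -0.26 and those of Acsm4 -0.10 and -0.34, neither called. Of 12 immature neuron and progenitor markers none was called in that comparison on either scale (none at an unadjusted p under 0.05), with medians of 0.09 and -0.15. Of 10 sustentacular cell markers, for the supporting cells of the olfactory epithelium, none was called as deposited (2 at an unadjusted p under 0.05). After scaling 1 rose and 1 fell, against 4.69% and 3.58% of all genes.

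Among 12165 genes of mean at least 1 FPKM that are not odorant receptors, the pattern most like the summed class I level over the 9 libraries was that of Cops3, a signalosome subunit (Pearson r = 0.993), then Syap1 (0.989) and Mfsd14a (0.989). Nqo1 stood at place 285 (0.957) and Omp at place 8952 (0.784). The libraries share their differences of scale, which enter all of these correlations, so they are given as descriptions.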

How the data were processed

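Poly(A) RNA of mouse nasal mucosa was sequenced in 9 libraries, grouped by the sample titles. The submitters' processing notes name fastp 0.19.4, HISAT2, StringTie and mm10. The annotation, the strand setting and how reads common to several receptors were shared out are not given in the sources. The authors deposited FPKM values for 21930 genes, without counts. Since FPKM is relative to the whole library, abundant genes move the values of all others. Depth, estimated from 4327 single-transcript genes, was roughly 15.2 to 24.8 M fragments (M, mega). The search covered a fixed range of depths, which bounds this estimate, so it is only a rough guide. Between 15.9% and 22.3% of low values came within 0.05 of a whole number of fragments, too few to recover reads, and no count test was run. Spearman correlations were 0.979 to 0.988 between libraries of a group and 0.966 to 0.980 across groups.

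Gene symbols and positions, from GENCODE M21 (GRCm38), were matched to 21817 rows. The test was limma 3.58.1 in R 4.3.3 on log2(FPKM + 0.1), with a mean-variance trend, 1 fit of all 9 libraries (6 residual degrees of freedom), genes of at least 0.1 FPKM in at least 3 libraries, Benjamini-Hochberg adjustment over every gene tested and a threshold of 0.05. It was run as deposited and after median-of-ratios scaling over 16486 genes above 0 in every library (size factors 0.710 to 1.75). Changes on this scale understate those of low genes. The code was tested on simulated data. Coding sequences of the odorant receptors with a row were compared with BLAST+ 2.17.0, counting copies aligned over at least 80% of the coding length. RefSeq windows before the gene start were found for 99 members, of which 87 began at a coding start, and were not used. Figures were drawn with matplotlib 3.10.9.

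The members and gene lists were chosen with earlier results of these data known. The named members are the 12 of highest mean, the members with the smallest p among those called (at most 6 per direction, comparison and scale), the member of largest fitted change in each direction, and Olfr544, Olfr558 and Olfr692. The alternatives were other pseudocounts, filters and scalings, fits of the groups compared only, no trend, a replicate block and each library left out. Division by the other receptors, the ratio without the 20 highest of them, and the block after scaling were chosen after seeing the data.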

Additional observations from a re-analysis of the deposited data

How the results depend on the processing

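The ratio of class I to other receptors kept control lowest and eCRS highest in group means under each alternative run. With each library left out its group means ran from 7.67 to 9.48 in control, 18.1 to 20.4 in eCRS and 14.4 to 15.9 in eCRS_Exo. Without the 20 highest other receptors the eCRS_Exo mean was 17.3, and the libraries of eCRS and eCRS_Exo overlapped. Counts of called members depended on scaling. In eCRS against control, 59 members were called higher after division by olfactory neuron markers (71.4% of all genes) and 53 after division by the other receptors (62.9%). After median-of-ratios scaling, quantile normalization or without the trend 1 was called lower, against 3.58%, 3.67% and 0.620% of all genes. In eCRS_Exo against eCRS, the count higher was 1 after median-of-ratios scaling, quantile normalization, division by markers or division by the other receptors (0.314% to 9.96% of all genes). It was 51 after rescaling to a common sum (66.1% of all genes). With a filter at 1 FPKM, where 20 members were tested, it was 3 at either pseudocount (61.7% and 63.0% of all genes). After division by markers 36 were called lower (67.7% of all genes), and the log2 changes of Olfr685, Olfr668 and Olfr681 turned to -0.11, -0.087 and -0.13. In eCRS_Exo against control, the count higher was 1 after median-of-ratios scaling or quantile normalization (8.34% and 8.69% of all genes). It was 0 after division by markers (0.296% of all genes), with 8 members at an unadjusted p under 0.05 in limma. It was 8 after division by the other receptors (6.56% of all genes). With the filter at 1 FPKM it was 17 at a pseudocount of 0.1 and 19 at 1 (83.8% and 84.3% of all genes).

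The log2 ratio of the summed class I means was 0.60 in eCRS against control as deposited, 0.27 after median-of-ratios scaling, 0.30 after quantile normalization and 1.19 after division by markers. For eCRS_Exo against eCRS it was 0.67 as deposited, 0.012 after median-of-ratios scaling, -0.041 after quantile normalization and -0.94 after division by markers. For eCRS_Exo against control it was 1.27 as deposited and 0.29, 0.26 and 0.25 under those settings. With each library left out these ratios ran from 0.11 to 0.93, 0.35 to 1.17 and 1.14 to 1.50.

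With each library left out, 0 to 4 members were called higher and 0 to 1 lower in eCRS against control as deposited. The shares of all genes were 1.15% to 11.2% and 0.354% to 1.36%. Scaled, the counts were 0 to 2 and 0 to 1, against 2.36% to 4.76% and 1.51% to 4.79% of all genes. In eCRS_Exo against eCRS 4 to 49 were called higher as deposited, with 49 (57.1% of all genes) without the first eCRS library and 4 (31.6%) without the second. Without the first, the second and the third eCRS_Exo library there were 5, 6 and 34 (23.6%, 29.3% and 62.7%). Scaled, 0 to 2 were called higher, against 3.42% to 10.1% of all genes. In eCRS_Exo against control 42 to 75 were called higher as deposited, with 75 without the second eCRS library (75.8% of all genes). The count was 42 to 43 without the second or the third control or the first or second eCRS_Exo library (55.6% to 61.6% of all genes). Scaled, 0 to 5 were called higher (2.85% to 9.28% of all genes) and 0 to 1 lower (4.31% to 11.5%). The 5 were called without the first control library, where 4.88% of all genes were called higher. The scaled call of Olfr692 ended without any 1 control, the first eCRS_Exo or the third eCRS_Exo library.

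The titles do not state that replicate numbers pair the libraries. Correlations of same-numbered libraries' deviations ran from -0.243 to 0.0470, and 0 of 9 libraries correlated best with their own number. With 3 libraries in each group, and deviations that carry library scale, these correlations cannot decide whether libraries were paired. With a replicate block 0, 17 and 62 members were called higher in the 3 comparisons as deposited, against 2.81%, 47.7% and 69.8% of all genes. After scaling the call of Olfr644 in eCRS against control was lost (0 lower) with the block, as was that of Olfr692 in eCRS_Exo against control (adjusted p = 0.0585, limma). Depth, known only roughly, may limit single receptors. At these levels an FPKM step of a few fragments can be a large part of the value.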
